A study of Mus musculus with 66 samples.

Results

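Caloric restriction (CR) was compared with ad libitum (AL) feeding in the cerebellum of C57BL/6 mice about 16 months old. The comparison used 18 of the 66 arrays of the series, each a different mouse: 8 CR mice (4 females and 4 males, 474 to 499 days old, median 488) and 10 AL mice (5 females and 5 males, 476 to 499 days, median 483). All mice ate regular feed to 13 weeks of age, and the CR mice were then stepped down to 60% of a fortified feed, which they kept until they were killed. Total RNA of each cerebellum was labelled with radioactive dCTP and hybridised to a nylon filter that carried 8448 cDNA probes, with 1 filter for each mouse. The sample titles name this filter with a suffix B, and the study reported more genes than it carried probes. The readings therefore cover only a part of the genes of the study. A further 2 CR mice of this age (array numbers 21 and 22, 1 of each sex) were left out, because the spots at position 8 of each run of 22 probe numbers had failed on their filters. The mean Z score at that position was -2.70 and -2.69 on these arrays, and between 0.228 and 0.443 on the 18 arrays used.

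The cerebellum coordinates movement and balance. Its granule cells send excitatory fibres to the Purkinje cells, whose axons are the output of the cerebellar cortex, and Bergmann glia surround the Purkinje cells. Caloric restriction lengthens life in rodents. In peripheral tissues it is known to shift the use of fuels, to damp insulin and mTOR signalling and to raise autophagy, the breakdown of cell components in lysosomes. The question of this comparison was which of these programmes, if any, differed in the cerebellum in midlife.

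Values were the deposited Z scores, in which 1 unit is 1 SD of the probes of an array, so a difference cannot be turned into a fold. A difference is CR minus AL throughout, with males and females weighted equally, and errors are the standard errors of the linear model (limma). The 4104 probes with a mean Z score above 0 were kept. Of these, 2196 carried 1 gene symbol (2023 genes), 108 several and 1800 none. The median correlation of an array with the others was 0.922 to 0.974 in CR mice and 0.931 to 0.973 in AL mice. It was under 0.94 on 3 arrays, those of CR male 5, CR female 5 and AL female 5. A gene name stands for the probe as annotated. The Xist probe, which should mark females, read -1.31 to -0.71 in the 9 females and -1.16 to -0.67 in the 9 males, so it did not tell the sexes apart. For the 149 genes with 2 or more kept probes, the first 2 of each were compared. Their diet differences correlated by 0.197 across genes and had the same sign in 75 genes (50.3%).

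No probe of this filter passed the test for diet at 16 months. None of the 4104 kept probes (0%) passed a Benjamini-Hochberg adjusted p under 0.05 in limma, and the smallest adjusted p was 1. An unadjusted p under 0.05 was reached by 71 probes (1.73%), of which 19 were higher in CR mice (0.463%) and 52 lower (1.27%). A uniform 5% would be 205.2 probes. The count was not tested against this number, and probes that share their arrays are not independent. The count went from 37 to 253 when 1 mouse was left out, and from 16 to 468 under other settings of the fit. The Z-ratio criteria, a first step of the study's own selection (a Z-ratio of 1.5 or more in either direction with an unadjusted p under 0.05, here the moderated p of limma, where the Z-ratio is the difference divided by the SD of the differences over all probes), were met by 67 probes (1.63%), 18 higher and 49 lower. The study's further analysis of variance on such genes was not repeated. For no kept probe (0%) did the range of the CR mice lie wholly outside that of the AL mice.

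The differences were small, and their intervals were narrow against the spread of the probes of an array but wide against the differences themselves. The median difference over kept probes was -0.00225, the median size of a difference was 0.0453 and the median standard error 0.0738 Z units. The median 95% interval was the difference ± 0.154. The SD of the differences over all probes, which is the unit of the Z-ratio, was smaller at 0.0802. For 3080 kept probes (75.0%) the whole interval lay within ± 0.25, and for 4087 (99.6%) within ± 0.5. A difference beyond 0.25 in either direction was measured for 3 kept probes. The share of the variation between mice of a sex that went with diet was 4.15%. The median share over all 15876 ways to reassign diet within sex was 5.50%, so the observed share was smaller than most (exact permutation test, one-sided, p = 0.831).

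**Figure D1:**
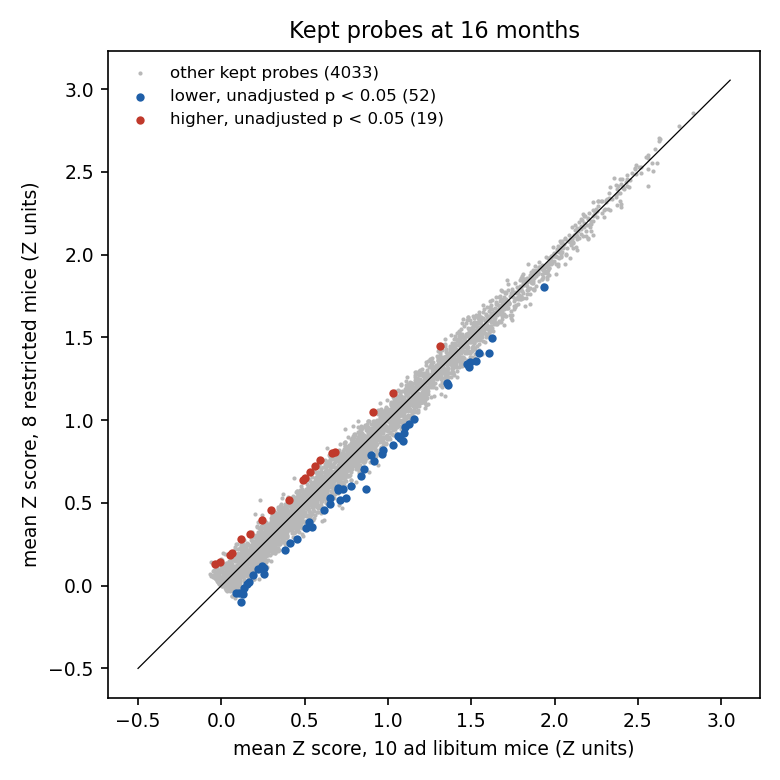
Mean Z score of each kept probe in the 8 CR mice (vertical axis, Z units) against that in the 10 AL mice (horizontal axis, Z units), with the line of equal means. All probes lie close to the line; the 19 probes with an unadjusted p under 0.05 that were higher in CR mice (red) and the 52 that were lower (blue) lie at the edges of the same narrow band, and none passed the adjusted threshold.

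Since no probe passed, the genes below are those of smallest unadjusted p with a proper symbol in each direction, together with those that met the Z-ratio criteria. Adjusted p in limma was 1 for every one of them. They are described by their values and do not count as changed.

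The named probe of smallest p belonged to Ezr, which encodes ezrin, a linker of actin filaments to the cell membrane. The CR mice read 0.59 at the lowest, 0.89 at the median and 1.11 at the highest, and the AL mice 0.82, 1.13 and 1.29. All 8 CR mice were below the AL median, but the ranges overlapped. The difference was -0.218 ± 0.0719 Z units (limma, unadjusted p = 0.00643). It was -0.344 in males and -0.092 in females.

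Pbrm1, a subunit of the PBAF chromatin remodelling complex, read -0.35 to 0.10 in CR mice (median -0.085) and -0.21 to 0.42 in AL mice (median 0.15), a difference of -0.216 ± 0.0768 Z units. All 8 CR mice lay below the AL median here too. Ncaph, a subunit of condensin, which compacts chromosomes, read -0.28 to 0.18 (median -0.02) against -0.05 to 0.31 (median 0.105), and 7 of the 8 CR mice were below the AL median. Its difference was -0.177 ± 0.064. Macroh2a2, a histone variant, differed by -0.154 ± 0.0735, the nuclear pore protein gene Nup43 by -0.166 ± 0.0673, Sun1, which anchors the nuclear envelope to the cytoskeleton, by -0.161 ± 0.0725 on one of its kept probes and -0.0243 ± 0.0717 on the other, and Luc7l3, a splicing factor gene, by -0.183 ± 0.0852. The SD among mice of a diet was between 0.0962 and 0.218 for these probes, so the differences were of the size of the spread between mice.

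Cops5, the catalytic subunit of the COP9 signalosome, read 1.5 to 2.01 in CR mice (median 1.81) and 1.78 to 2.02 in AL mice (median 1.96). Its difference was -0.135 ± 0.0545. Sumo2, which encodes a small protein attached to other proteins, differed by -0.132 ± 0.0622, and Usp8, a deubiquitinating enzyme of endosomes, by -0.130 ± 0.0619. Arcn1 (a coat subunit of vesicles in the Golgi) at -0.149 ± 0.067, Arfgap2 (which acts on the same coat) at -0.152 ± 0.0646 and Hip1r (endocytosis) at -0.164 ± 0.0726 were lower in CR mice. The other kept Arcn1 probe differed by -0.0203 ± 0.0823. Lman2 (a cargo lectin of the early secretory path) at 0.146 ± 0.0646 and Rint1 (a tether of vesicles at the endoplasmic reticulum) at 0.134 ± 0.0619 were higher. Lman2 had another kept probe at -0.0105 ± 0.0636, so its probes disagreed in direction.

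Dld, the dehydrogenase subunit shared by pyruvate dehydrogenase and other mitochondrial complexes, read -0.15 to 0.46 in CR mice (median 0.275) and 0.27 to 0.49 in AL mice (median 0.42). The lowest value was that of CR male 5, far below the next CR mouse at 0.22. The difference was -0.155 ± 0.0631 Z units (limma, unadjusted p = 0.0229). Yme1l1, a protease of the mitochondrial inner membrane, had the widest spread of all the named genes. CR mice read -0.35 to 1.17 (median 0.715) and AL mice 0.52 to 1.12 (median 0.90), and the difference was -0.285 ± 0.126. It was -0.706 in males and 0.136 in females. The glutathione transferase gene Gstm6 differed by -0.171 ± 0.0752, Nagk, a kinase that salvages an amino sugar, by -0.138 ± 0.0628 and G6pc3, a glucose phosphatase, by -0.127 ± 0.0594.

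Other named probes on the lower side had differences of a similar size. Tmem223 differed by -0.193 ± 0.0702 Z units (limma, unadjusted p = 0.0123), Wdsub1 by -0.180 ± 0.0712, Ccdc115 by -0.173 ± 0.0718, Tatdn2 by -0.172 ± 0.0734 and Ccdc9 by -0.163 ± 0.0624. Cnep1r1, a regulatory subunit of a nuclear envelope phosphatase, differed by -0.153 ± 0.0686, Zfp688, a zinc finger gene, by -0.147 ± 0.0542 and Lpgat1, an acyltransferase gene, by -0.144 ± 0.0668. Nudt14, a hydrolase of nucleotide sugars, differed by -0.140 ± 0.0561, Camk1d, a calmodulin-dependent kinase gene, by -0.139 ± 0.0597 and Slc39a4, a zinc importer, by -0.131 ± 0.0617.

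On the higher side, the probe of smallest p with a name was Imp3, a component of the machinery that processes ribosomal RNA. CR mice read 0.18 to 0.53 (median 0.385) and AL mice 0.04 to 0.44 (median 0.25), and 7 of the 8 CR mice were above the AL median. The difference was 0.152 ± 0.0632 Z units (limma, unadjusted p = 0.0253). Atg13, a subunit of the complex that starts autophagy, read 0.51 to 0.82 (median 0.73) against 0.23 to 0.73 (median 0.50), and all 8 CR mice were above the AL median. Its difference was 0.153 ± 0.0709 (limma, unadjusted p = 0.0426). Zfx, an X-linked transcription factor gene, read 0.43 to 0.68 (median 0.505) against 0.29 to 0.51 (median 0.425), with all 8 CR mice above the AL median and a difference of 0.113 ± 0.0511. Mlx, the partner of glucose-sensing transcription factors, differed by 0.136 ± 0.0619, the peptidase gene Lap3 by 0.166 ± 0.0797, the neuronal RNA-binding protein gene Celf3 by 0.163 ± 0.0798, and Rbm26, another RNA-binding protein gene, by 0.154 ± 0.0707. Ano5, Asz1 and Wnt4 had differences of 0.168, 0.132 and 0.123. Wnt4, a secreted Wnt ligand, had another kept probe, on which the difference was -0.0703 ± 0.0653, so its probes disagreed in direction.

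**Figure D2:**
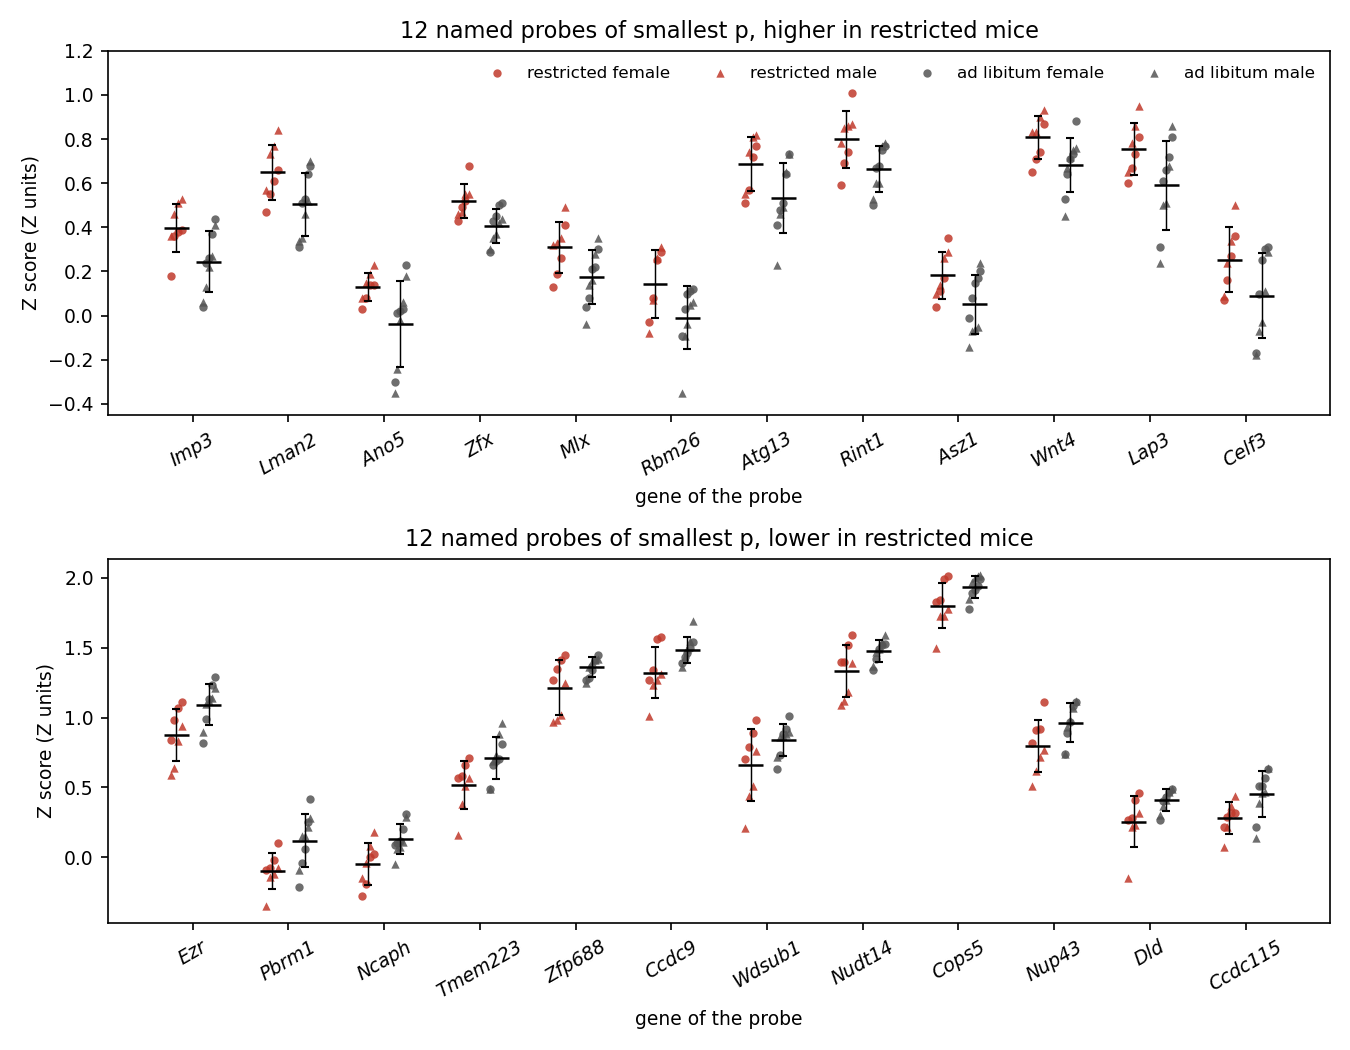
Z score of each mouse (vertical axis, Z units) for the 12 named probes of smallest p that were higher (upper panel) and lower (lower panel) in CR mice; points are mice, CR in red and AL in grey, circles females and triangles males, bars the mean and SD of the 8 CR and the 10 AL mice. The 2 diets overlap for every gene, and the low CR values of Dld, Wdsub1, Tmem223 and Cops5 come from males.

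The direction of these readings followed the place of a probe along the probe numbers. The filter was divided into 24 segments of 352 consecutive probe numbers. The median difference of kept probes was 0.056 in the first segment and -0.102 in the last. All 19 probes with an unadjusted p under 0.05 that were higher in CR mice lay in segments 1 to 12, and all 52 that were lower lay in segments 13 to 24, although kept probes were split 2078 to 2026. The last segment alone held 30 of the 71, which was 17.8% of its 169 kept probes against 1.04% of the 3935 elsewhere. Of the 46 such probes with a proper symbol, 21 were there, among them Ezr, Pbrm1, Cops5, Nup43, Dld, Yme1l1 and Usp8. Imp3 and Lman2 are neighbours by probe number, and Wnt4 lies close by. Neighbouring probes on the whole filter had differences that correlated by 0.437, as did probes 22 numbers apart (0.444), as a description across probes that share their arrays.

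Single arrays moved with this pattern. Relative to the mean of the 18 mice, CR male 5 read -0.402 at the median of the last segment and 0.172 at that of the first, whereas the other CR mice read -0.0689 to 0.0975 in the last segment and AL mice -0.0789 to 0.129. Of the 5 array sets (runs of array numbers), 4 held 2 mice of each diet. Set 2 held only AL mice once the failed arrays were left out. The median difference in the last segment was -0.04 in set 1, 0.025 in set 3, 0.08 in set 4 and -0.32 in set 5, so it was negative in 2 sets and positive in 2. In the first segment the same sets gave 0.045, -0.035, -0.07 and 0.19. When each array was centred on the probes near each probe, 16 probes had an unadjusted p under 0.05 (2 higher and 14 lower), 0 of them in the last segment. Of the 45 named probes with such a p before, 2 (Ncaph and Cnep1r1) still had one. Both lie at position 8, where the spots of the failed arrays were lost. The Sun1 and Rpl10 probes with such a p before also lie there, and they did not keep it. Whether an offset of position 8 alone remained after this centring was not tested. How much of the readings above belongs to position on the filter was otherwise not tested. Without CR male 5, 253 probes reached an unadjusted p under 0.05, 134 higher and 119 lower, and none passed the adjusted threshold. Of these, 130 of the 134 higher lay in segments 1 to 12 and 108 of the 119 lower in segments 13 to 24, while the medians of the first and last segments shrank to 0.0309 and -0.0509. Without array numbers 61, 62 and 64 (CR male 5, CR female 5 and AL female 5), the counts were 99 of 110 and 95 of 105. With the array set as a block, 45 probes reached an unadjusted p under 0.05. With all sets and no block, the count was 125 without AL female 1, 154 without AL male 3, 44 without CR male 4, 39 without AL male 2 or AL female 2, and 37 without AL male 1.

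**Figure D3:**
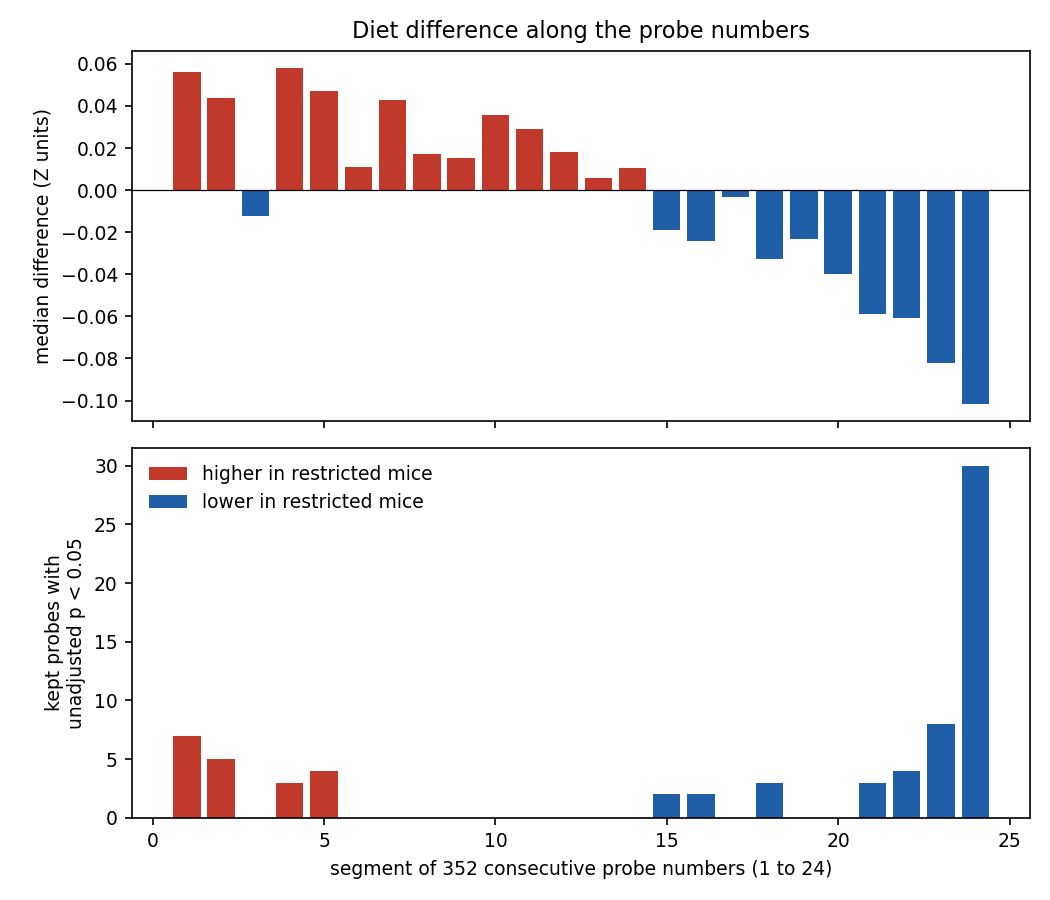
Median difference of kept probes (upper panel, Z units) and number of kept probes with an unadjusted p under 0.05 (lower panel) in each of the 24 segments of 352 consecutive probe numbers; red bars are higher and blue bars lower in CR mice. The medians go from 0.056 in segment 1 to -0.102 in segment 24, which holds 30 of the 71 probes of the lower panel.

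Gene lists of programmes that caloric restriction is known to touch in other tissues were then described by their counts and medians. Over all kept probes, 1992 were higher and 2107 lower, with a median of -0.00225. In every list 0 probes passed the adjusted threshold. Energy metabolism lay on both sides of 0. Of 23 kept probes for subunits of oxidative phosphorylation, 10 were higher and 13 lower, with a median of -0.0095 and a range of -0.143 to 0.113. Atp5md, a small subunit of ATP synthase, had 2 kept probes that disagreed in direction, at 0.0398 ± 0.0558 and -0.0867 ± 0.0617. Atp5b, a catalytic subunit, differed by 0.113 ± 0.0707 and 0.0592 ± 0.0661 on its 2 kept probes. The tricarboxylic acid cycle and pyruvate dehydrogenase list had 3 probes higher and 3 lower (median 0.00313), and its one probe with an unadjusted p under 0.05 was Dld. Glycolysis had 2 kept probes, both of Pfkm, the muscle-type phosphofructokinase, with differences of -0.142 ± 0.0705 and 0.0085. Fatty acid oxidation and ketone use had 4 kept probes with a median of 0.0555, of which Etfdh (electron transfer from fat oxidation) differed by 0.0775 ± 0.0718 and Cpt2 (import of fatty acids into mitochondria) by -0.101 ± 0.0786. Mbtps1, the protease that activates the sterol regulators, differed by -0.0853 ± 0.0562.

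For nutrient signalling the readings lay near 0. The 16 kept probes of insulin, mTOR and AMPK signalling had a median of 0.0118 and none lay beyond -0.0683 or 0.056. Rptor, which gives the mTOR complex its substrates, read 1.74 to 2.12 in CR mice (median 1.85) and 1.68 to 1.97 in AL mice (median 1.90), a difference of 0.0155 with an interval of -0.116 to 0.147. Rps6, the ribosomal protein phosphorylated downstream of mTOR, differed by 0.056 with an interval of -0.108 to 0.220, and its other kept probes by 0.0325 and -0.00325. Thra, a thyroid hormone receptor gene, was the only kept probe of the list of feeding peptides and stress hormones (0.101 ± 0.0735). None of the 6 circadian clock probes was kept.

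Genes of protein synthesis and breakdown lay on both sides of 0. Of 47 kept probes of cytosolic ribosomal proteins (32 genes), 20 were higher and 27 lower, with a median of -0.00525. Rpl8 differed by -0.026 ± 0.0547. An unadjusted p under 0.05 was reached by Rpl6 (-0.126 ± 0.0549, with another kept probe at -0.0595 ± 0.0608) and by 1 of the 3 kept Rpl10 probes (-0.163 ± 0.0748), while the other Rpl10 probes differed by -0.118 ± 0.0757 and -0.067 ± 0.0761. Translation factors had 16 probes higher and 7 lower (median 0.0155), and Eef1g, a subunit of the elongation factor, differed by -0.149 ± 0.0679 on 1 of its 5 kept probes and by -0.0288 to 0.0288 on the others. The 14 kept chaperone probes had 4 higher and 10 lower and a median of -0.0378. Among them Hspa8, the constitutive heat shock protein gene, read 2.15 to 2.59 in CR mice (median 2.24) and 2.07 to 2.41 in AL mice (median 2.22), with an interval of the difference of -0.0546 to 0.237. Cct6a, a subunit of the chaperonin that folds actin and tubulin, differed by -0.201 ± 0.111, and its lowest reading, 0.40, was that of CR female 5. The proteasome had 5 probes higher and 5 lower (median -0.0128). Its Psmd10 read 1.10 to 1.30 in CR mice and 1.09 to 1.56 in AL mice, with all 8 CR mice below the AL median of 1.345 and a difference of -0.126 ± 0.0645. Autophagy and lysosome had 7 higher and 6 lower (median 0.00225), with Atg13 its one probe of unadjusted p under 0.05 and Npc2, a cholesterol carrier of lysosomes, at 0.00225 (interval -0.128 to 0.132). Antioxidant defence had 3 higher and 3 lower, and Gstm1 and Prdx4 differed by 0.0158 ± 0.0786 and -0.0505 ± 0.0611.

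Neuronal, repair and immune genes had medians between -0.0473 and -0.00875. Synaptic vesicle genes had a median of -0.0128 over 9 probes, with Syt11 at 0.0643 ± 0.0698 and Scamp5 at -0.121 ± 0.0857. The 4 kept probes of glutamate and GABA receptors and their scaffolds were all lower (median -0.0473), Homer2 by -0.0735 ± 0.104. Wnt signalling had 3 higher and 8 lower (median -0.0158). DNA repair and telomere maintenance had 5 higher and 9 lower (median -0.029), with Rad50, which joins broken ends, at -0.0575 ± 0.0504 and the damage kinase gene Atr at 0.137 ± 0.0775. Inflammation and interferon response had 6 higher and 7 lower (median -0.00875), with the class I antigen H2-K1 at -0.0155 (interval -0.166 to 0.135).

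**Figure D4:**
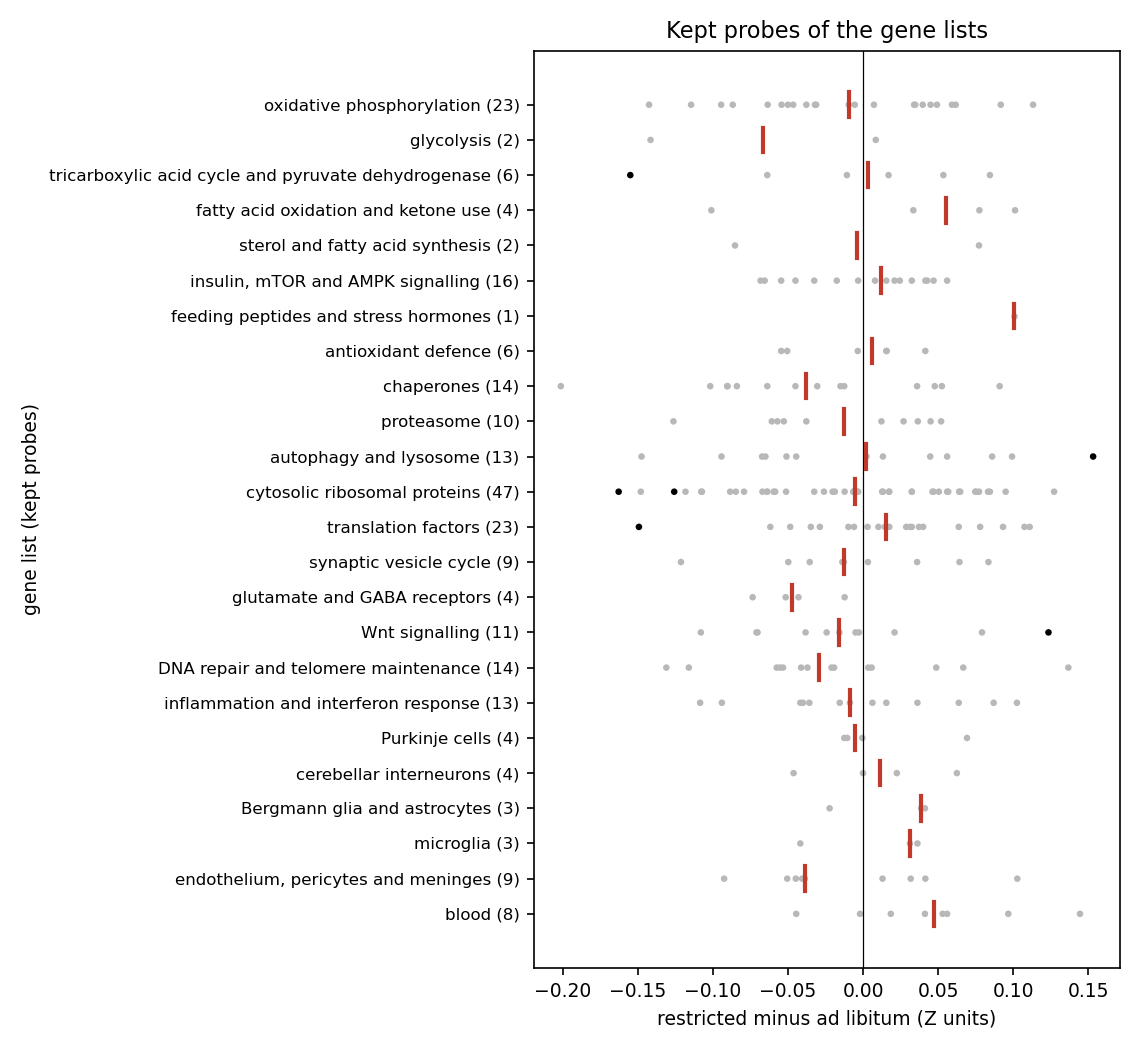
Difference of each kept probe (points, horizontal axis, Z units) in the gene lists (vertical axis, with the number of kept probes), the median of each list in red; black points had an unadjusted p under 0.05. The lists with 9 or more probes have medians between -0.0388 and 0.0155, and single probes spread on both sides of 0 in most lists.

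None of the kept markers of cerebellar cell types passed the test. Fewer cells of a type and less RNA per cell cannot be told apart in tissue RNA. The Purkinje cell markers had 4 kept probes of 9. Their mean was 0.26 to 0.723 in CR mice and 0.368 to 0.68 in AL mice, and Car8, which is strongly expressed in Purkinje cells, differed by -0.0005 (interval -0.165 to 0.164). Calb1, the calcium-binding protein of Purkinje cells, had 2 kept probes, at 0.0693 ± 0.12 and -0.0125 ± 0.0629, and 2 further probes below the mean of the array. For interneurons (4 kept probes), Bergmann glia and astrocytes (3) and microglia (3), the medians were 0.0113, 0.0388 and 0.0313. Gja1 of astrocytes differed by 0.0413 ± 0.0633, and C1qc of microglia by -0.0418 ± 0.0519. The vessel and meninges list (9 kept probes) had a median of -0.0388, with Fn1 at -0.0505 ± 0.0723 and Col1a2 at 0.103 ± 0.0755. Of the globin and other blood probes, 8 were kept, 6 higher and 2 lower (median 0.0471), and their mean was 0.331 to 0.58 in CR mice and 0.274 to 0.575 in AL mice. Oligodendrocytes and the choroid plexus had 0 kept probes, and granule cell markers had none on the filter, so the labelled tissue could be checked only against the markers of the other cell types.

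The sexes were also fitted separately within the same model. None of the 4104 probes passed in either sex. In females 26 probes (0.634%) had an unadjusted p under 0.05, 8 higher and 18 lower. This split turned in some alternatives, to 40 higher and 8 lower without AL female 2, 29 and 19 without AL female 1, and 64 and 20 when array set was a block. In males 175 probes did (4.26%), 58 higher and 117 lower, with a smallest adjusted p of 0.558. Of those in males, 55 lay in the last segment, 32.5% of its kept probes against 3.05% elsewhere. In females 0 of the 26 lay there. The median differences of the first and last segments were 0.124 and -0.185 in males, and -0.0035 and -0.017 in females. The differences in females and in males correlated by -0.00668 over the kept probes, as a description across probes, and had the same sign in 54.3% of them. Of the 71 probes with an unadjusted p under 0.05 for diet, 62 (87.3%) had the same sign in both sexes, a count that the choice of these probes favours, and 0 had an unadjusted p under 0.05 in each sex.

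The difference between the sexes in the response to diet was tested as an interaction, and 0 probes passed, with 81 (1.97%) at an unadjusted p under 0.05. The 3 named probes of smallest p were those of Cog4, a subunit of the Golgi tethering complex, Lmbr1, a membrane protein gene, and Yme1l1. Cog4 differed by -0.402 in males and 0.099 in females, and Lmbr1 by -0.394 and 0.089. Each had an adjusted p of 1 for the interaction in limma, and all 3 were in the last segment. Without CR male 3, whose Yme1l1 probe read 0.93, Yme1l1 was called in males (-0.938, limma adjusted p = 0.0147), against -0.706 with that mouse (limma adjusted p = 0.581), and it was the only probe called when single mice were left out.

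**Figure D5:**
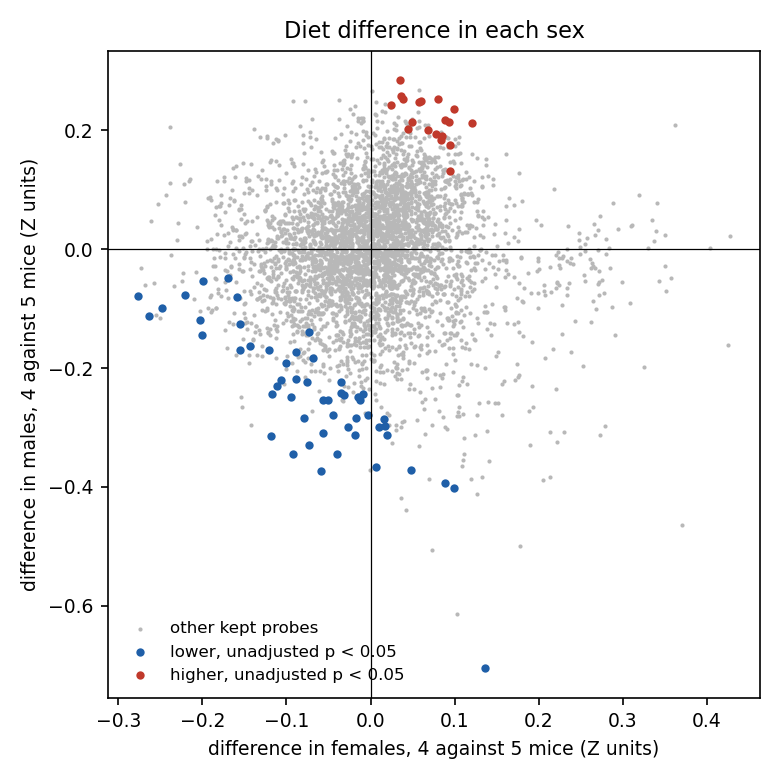
Difference of each kept probe in males (vertical axis) against that in females (horizontal axis), CR minus AL in Z units, 4 CR and 5 AL mice in each sex; probes with an unadjusted p under 0.05 for diet are red (higher) or blue (lower). Over all kept probes the correlation is -0.00668, and the red probes lie in the quadrant where both sexes are higher.

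Whether restriction acted differently at 16 months than at 6 and 24 months was tested over 53 adult mice. Besides the 2 failed arrays, 1 array of low correlation with the others, of a CR female of 24 months, was left out. None of the 4104 probes passed (smallest limma adjusted p = 0.99989), and 60 (1.46%) had an unadjusted p under 0.05. The 3 named probes of smallest p were Spred1, an inhibitor of Ras signalling, Itgb7, an integrin subunit, and Celf3. Spred1 differed by 0.135 at 16 months, -0.0435 at 6 months and -0.0921 at 24 months. For Itgb7 the values were 0.152, -0.0615 and -0.0895, and for Celf3 0.163, -0.115 and -0.0403. For Spred1 and Itgb7, AL female 5 gave the lowest reading of the AL mice, 0.20 and 0.37, well below the next at 0.58 and 0.88.

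The spread among mice did not differ detectably between the diets. Averaged over kept probes, the within-sex SD of CR mice was higher than that of AL mice by 0.274 on the log2 scale, where the median over the 15876 reassignments of diet was -0.0356 (exact permutation test, two-sided, p = 0.319). Without the 3 arrays of lowest correlation the value was -0.372 (exact permutation p = 0.346).

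Differences at position 8 were far larger when arrays 21 and 22 were included. Vim, an intermediate filament gene of glia and vessels, read 0.92 to 1.23 in CR mice and 0.94 to 1.18 in AL mice, and its difference of -0.0223 ± 0.0537 became -0.752 with the failed arrays. Rad50, Hba-a2 and a kept Rpl10 probe likewise went from -0.0575, -0.002 and -0.118 to -0.943, -0.845 and -0.880. These 4 probes lie at position 8, where the spots of the failed arrays were lost, and so do the other kept Rpl10 probes. Mbtps1 went from -0.0853 to -0.260. Syncrip, an RNA-binding protein gene, had a difference of 0.164 ± 0.127 without these arrays, and its AL range of -1 to 0.50 was set by AL female 5 at the low end.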

How the data were processed

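The authors quantified phosphor images of the filters and deposited Z scores. A score gives the distance of a probe from the mean of its array in SDs of that array. A logarithm before this step is not stated in the methods or labels. No genome build is named in these sources, so no coordinates are given. Gene symbols came from the platform annotation. The files hold no counts or spot quality, so the number of arrays limits the precision, and p-values measure the spread between mice together with that of the hybridisation.

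Group means of the 4 groups of sex and diet were fitted in limma 3.58.1 with R 4.3.3 (lmFit, contrasts.fit and eBayes, 14 residual degrees of freedom) to probes whose Z score averaged above 0 over the 4 groups. P values were two-sided and adjusted over all kept probes by the Benjamini-Hochberg method, with a threshold of 0.05. The fits were run on simulated data with independent noise for each probe, which does not copy the correlation between neighbouring probes of the filter. The study did not adjust p values, and its Z-ratio criteria were applied beside the adjusted test with the limma p. Its two-way analysis of variance was not repeated.

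The comparison, its members and the gene lists were chosen with earlier results of these data known. Named genes were the 12 probes of smallest p with a proper symbol in each direction, all such probes that met the Z-ratio criteria, the probe of highest mean Z score and the probe of smallest p of each of 28 gene lists, 4 genes that stood out with the failed arrays, and the 3 probes of smallest p for diet by sex and by age. From lists drawn by symbol prefix, 14 names that share only the prefix were dropped. Alternatives were other normalizations, filters, covariates and weights, and leaving out each mouse. Local centring subtracted, on each array, the median deviation of the probes within 8 runs and 3 positions. It and the fit without the 3 arrays of lowest correlation were chosen after seeing the data.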

Additional observations from a re-analysis of the deposited data

Results flagged for a closer look

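Among 188 groups of readings (90 named probes and 4 measures of array quality, each in the CR and in the AL mice), 13 (6.91%) had a highest or lowest mouse whose gap to the next exceeded Dixon's 95% limit, and chance flags about 1 in 20. CR male 5 stood apart 4 times. It was lowest for Dld (-0.15, next 0.22) and Etfdh (0.09, next 0.43), highest for Vim (1.23, next 1.05), and lowest in its median deviation over the last segment (-0.402, next -0.0689). AL female 5 also stood apart 4 times. It was lowest for Syncrip (-1, next -0.07), Spred1 (0.20, next 0.58) and Itgb7 (0.37, next 0.88), and its median correlation with the other arrays was 0.931 against 0.955 for the next AL mouse. CR female 5 was highest for Hip1r (0.40, next 0.26) and lowest for Cct6a (0.40, next 1.06). AL male 1 was lowest for Rbm26 (-0.35, next -0.09) and highest for Gstm6 (1.13, next 0.88). CR male 3 was lowest for Syncrip among CR mice (0.00, next 0.17).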

How the results depend on the processing

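No probe was called for diet under any of the 30 alternatives (smallest limma adjusted p 0.436, with array weights), nor for females, for diet by sex or for diet by age under theirs. In males 0 to 1 were called when single mice were left out, the 1 being Yme1l1. Of the 45 named probes with an unadjusted p under 0.05, none turned direction, which their choice by p in the same data favours. As few as 18 of them kept such a p when 1 mouse was left out, and 21 did without array numbers 61, 62 and 64. Of the other 45 named probes, 17 turned direction, all with a main difference of at most 0.0693 in size. The labels carry no replicate numbers, so the array set served as the block. The number of arrays limits what can be seen.

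The 71 probes with an unadjusted p under 0.05 became 44 in 1 model of all groups, 115 after centring at each of the 22 positions, 151 over all probes of the filter, 45 with array set as a block, 468 with array weights, 16 with local centring and 215 without array numbers 61, 62 and 64. The 67 that met the Z-ratio criteria became 1 with arrays 21 and 22 included, 35 in 1 model, 138 over all probes, 191 with array weights, 11 with local centring and 162 without the 3 arrays. For females, 26 became 15 with arrays 21 and 22, 90 over all probes and 84 with the set as a block. For males, 175 became 297 over all probes, 38 with local centring and 594 without the 3 arrays. For diet by sex, 81 became 45 with arrays 21 and 22, 151 over all probes, 37 with local centring and 229 without the 3 arrays. For diet by age, 60 became 197 with arrays 21 and 22, 113 after position centring, 193 over all probes and 258 with the set as a block. The share of variation with diet was 8.23% with arrays 21 and 22 and 8.63% without the 3 arrays, and the spread was -0.372 without them. The causes were not tested.

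Leaving out 1 mouse at a time gave 37 to 253 probes for diet, 33 to 189 by the Z-ratio criteria, 20 to 48 in females, 117 to 449 in males, 45 to 203 for diet by sex and 47 to 131 for diet by age.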

Other observations

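In females, 100 kept probes were higher in CR mice by more than 0.2 Z units and 31 were lower by more than that, a description of probes chosen by their difference. On the 100 probes AL female 5 read -0.796 below the mean of the 18 mice at the median, CR male 5 -0.345 and AL female 4 -0.243, whereas the other 15 mice read between -0.0692 and 0.273. The median female difference of these probes was 0.259, and 0.0975 without AL female 5. Of the 100, 6 had an unadjusted p under 0.05 in females, against 0.634% of all kept probes, a count that their choice by difference favours.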
